A study of Mus musculus with 6 samples.

Results

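The lysosome is the acidic organelle in which cells break down proteins, lipids, glycogen and glycoconjugates. The V-ATPase, a rotary pump, acidifies it: a cytosolic V1 sector burns ATP and turns a V0 sector in the membrane that carries protons inward. Hydrolases work in the acidic lumen, membrane proteins line and export from the organelle, and the transcription factors TFEB and TFE3 bind E-box elements, known as CLEAR elements, in the promoters of many of these genes. TFEB and TFE3 are held in the cytosol while mTORC1 is active, and activated T cells have high mTORC1 activity.

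The 32 genes described here were taken by symbol: 14 for the V-ATPase (4 of V0, 8 of V1 and 2 accessory proteins), 10 for hydrolases and a cofactor precursor, 6 for membrane proteins and cholesterol export, and 2 for TFE factors. All 32 had a gene row among the 22095 gene rows of the table. RNA came from naive CD8 T cells, lymphocytes that kill infected cells, purified from spleens of wild-type C57BL/6 mice. All cells were activated for 48 h with antibodies to CD3 and CD28 in medium with IL-2. The groups were 3 libraries of cells given 10 nM ponatinib, a drug that inhibits BCR-ABL and many other kinases, and 3 libraries of cells given its solvent DMSO. Whether replicates came from different mice or cultures is not in the labels, and the p-values therefore cover just the spread among these 6 libraries, which may be technical.

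Levels are in TPM, the share of transcripts scaled to a common total and corrected for gene length, which keeps no read depth. The 8 CD8 T cell markers were all above the minimum mean used below and summed to 2419, 2162 and 2198 TPM under ponatinib, against 1949, 1937 and 1957 TPM under DMSO. Of these, Cd3e, Cd8a and Cd8b1 lay higher under ponatinib without overlap, at 201 to 517 TPM over all 6 libraries, Cd28 lay lower without overlap, and Cd3d, Cd3g, Lck and Trac overlapped. Among all genes tested below, 39.4% lay higher without overlap and 14.0% lower, shares near those of the 8 markers. Differences were tested with limma on log2(TPM + 1), a scale that understates the change of low genes, in the 6466 genes whose mean over the libraries reached 10 TPM. A gene was called at a Benjamini-Hochberg adjusted p under 0.05. The median log2 difference of all tested genes was 0.10 rather than 0, and scaling the libraries by medians of ratios moved that median by -0.10. Calls of the 32 genes are therefore also given under other scalings. Calls of all other genes named below are given only as deposited, with that shift in them. DMSO replicate 3 stood apart from the other libraries: mitochondrially encoded genes held 7.16% to 8.19% of the TPM of the ponatinib libraries and 9.76% and 10.7% of that of DMSO replicates 1 and 2, but 4.78% in DMSO replicate 3. It had the highest level of all 6 libraries for 14 of the 32 genes, and how often it did so over all genes was not counted. It also had the most genes at 10 TPM or more, 6620, against 6182 to 6535 in the other libraries.

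Of the 32 genes, 28 reached the minimum mean and were tested. With ponatinib 6 rose, or 21.4% of those tested, where 29.9% of all tested genes rose. Another 6 fell, also 21.4%, where 9.88% of all tested genes fell. The median log2 difference of the 28 was 0.041, against 0.10 for all tested genes. The genes that rose were Psap and Ctsd among the luminal proteins and Atp6v1e1, Atp6v1c1, Atp6v1d and Atp6v1h of the V1 sector. Those that fell were the hydrolase genes Hexa, Ctsz, Gaa and Ctsb and the pump genes Atp6v0b and Atp6v1g1. No membrane protein gene and neither TFE factor gene was called. With medians of ratios as the scaling 3 rose and 10 fell, and with quantile normalization 3 rose and 8 fell; Psap, Atp6v1e1 and Atp6v1c1 were the 3 that rose in both, and all 6 genes that fell as deposited fell in both.

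**Figure D1:**
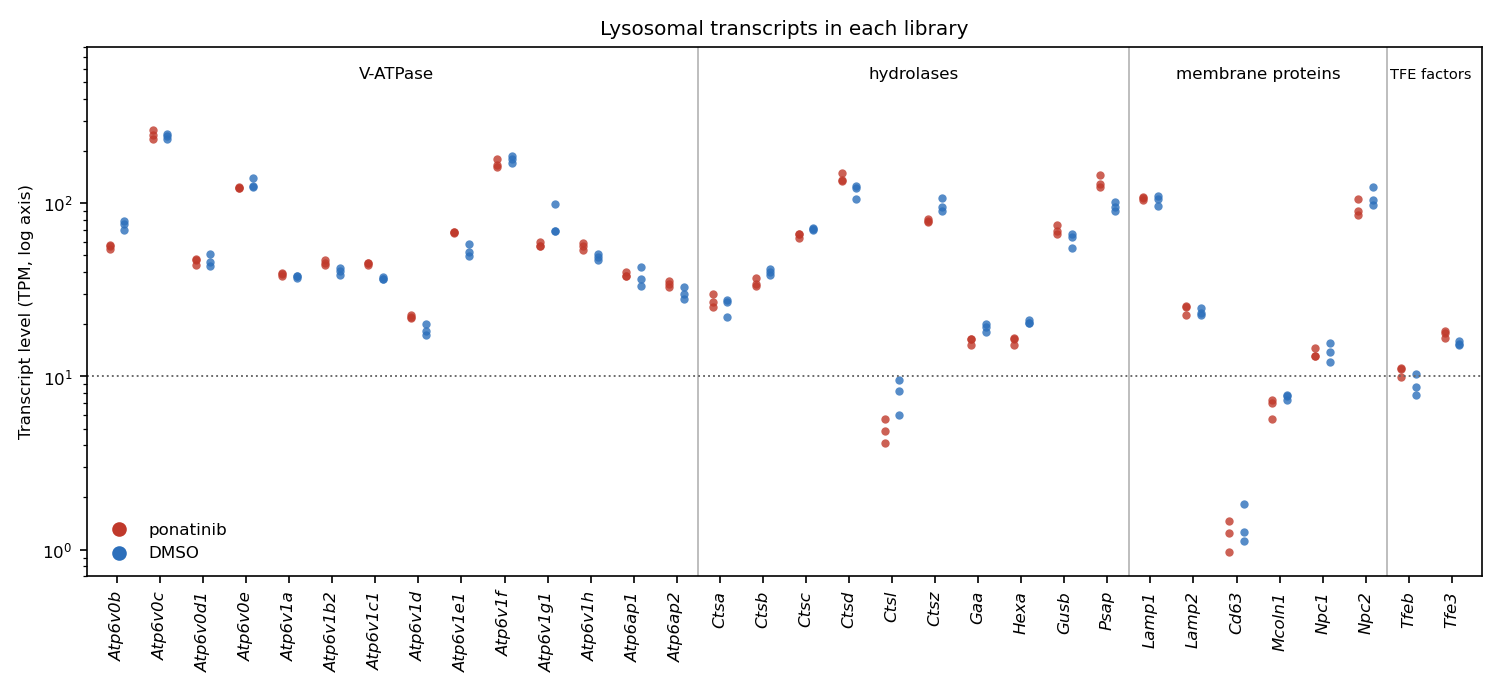
Transcript level in TPM on a log axis for each of the 32 lysosomal genes, with 1 point per library (ponatinib left and red, DMSO right and blue) and the minimum mean of 10 TPM dotted. Levels span from about 1 TPM for Cd63 to about 250 TPM for Atp6v0c, and most genes differ far less between the groups than from each other.

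The E-box core of the CLEAR element was looked for in promoters, since TFEB and TFE3 bind it in many lysosomal genes. RefSeq promoter windows on GRCm38.p6, 300 bases long from 250 before to 50 after the start site, were matched by symbol for 26 of the 32 genes. The motifs searched were CACGTG and the longer TCACGTGA, which contains it; both are palindromes, so both strands were read at once. TCACGTGA was in a window of 6 of the 26 genes (23.1%), against 131 of 5157 tested genes with a window (2.54%) and 1.12% of all genes with one. CACGTG was in 10 of the 26 (38.5%), against 12.4% and 8.09%. The stretches below reach 15 bases to either side of the sites, with the motif in capitals. Each reads in the direction of its gene; for Atp6v0d1 the GENCODE transcript begins after the RefSeq start site. They are given for the 6 genes with the longer motif, and for Lamp1 and Atp6v0b, which carry several copies of the shorter one.

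Ctsa, plus strand, chr2:164833745-164833799: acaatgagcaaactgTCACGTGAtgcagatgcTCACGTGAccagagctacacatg
Ctsd, minus strand, chr7:142387904-142387941: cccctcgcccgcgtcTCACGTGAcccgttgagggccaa
Mcoln1, plus strand, chr8:3500458-3500495: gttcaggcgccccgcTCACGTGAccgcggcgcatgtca
Atp6v0d1, minus strand, chr8:105566046-105566083: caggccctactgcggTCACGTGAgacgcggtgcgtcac
Atp6v0e, plus strand, chr17:26676383-26676420: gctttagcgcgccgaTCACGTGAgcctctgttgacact
Atp6v1a, minus strand, chr16:44139369-44139406: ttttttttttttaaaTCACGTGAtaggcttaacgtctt
Lamp1, plus strand, chr8:13159085-13159166: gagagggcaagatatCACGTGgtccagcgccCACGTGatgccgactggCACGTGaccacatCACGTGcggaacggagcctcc
Atp6v0b, minus strand, chr4:117887327-117887380: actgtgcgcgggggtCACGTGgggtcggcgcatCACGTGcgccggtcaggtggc

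Both copies in Ctsa lie close to the start site, at -13 and 5, and the 4 copies in Lamp1 begin at -61, -45, -28 and -15. For the counts of calls that follow, the shares over all tested genes were 29.9% higher and 9.88% lower. Of the 6 genes with TCACGTGA, 1 was called higher (Ctsd), 0 lower, 4 were not called and 1 was not tested. Of the 10 genes with CACGTG, 1 was called higher, 2 lower (Atp6v0b and Gaa), 5 were not called and 2 were not tested. Among the 16 genes whose windows lacked CACGTG, 3 were called higher, 2 lower, 9 were not called and 2 were not tested. The 6 genes without a window are in none of these counts. Of them, Atp6v1c1 and Atp6v1h were called higher, Atp6v1g1 and Ctsb lower, and Atp6v1b2 and Npc1 were not called. A match describes letters in this window and is not a measured binding site.

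**Figure D2:**
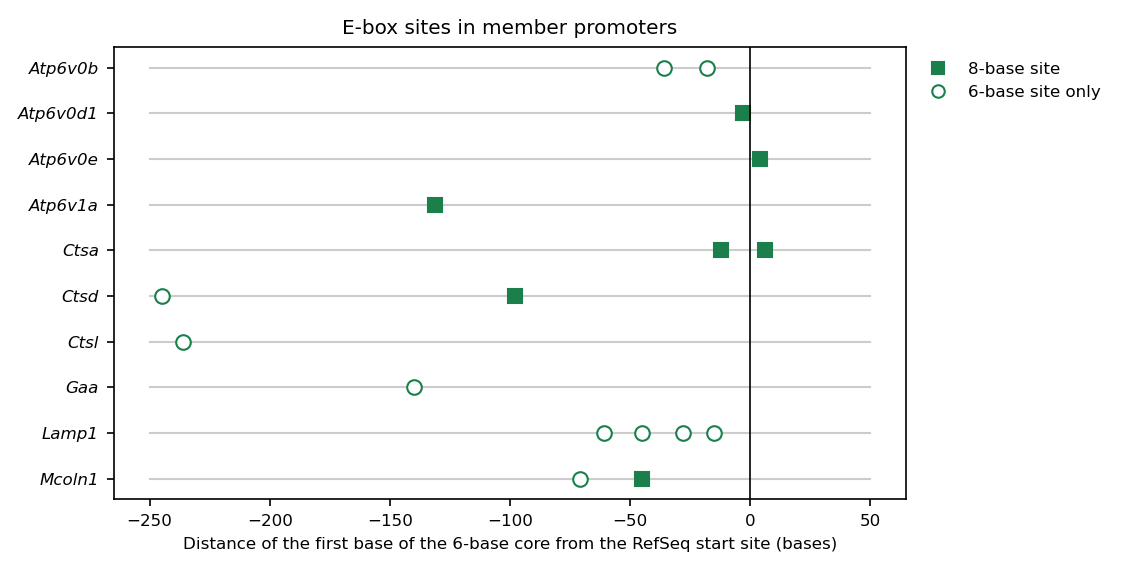
Position of each motif in the RefSeq promoter windows of the 10 lysosomal genes that hold CACGTG, as the distance in bases of the first base of the 6-base core from the start site; squares are cores inside the longer motif and open circles are the 6-base motif alone. Sites in Ctsa, Atp6v0d1, Atp6v0e, Lamp1 and Atp6v0b sit near the start site, and the site of Ctsl, at -236, and 1 of Ctsd, at -245, sit far before it.

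The V0 sector is the membrane-embedded rotor and stator. Atp6v0c, the main proteolipid of the proton-carrying ring, had the highest level of all pump genes, at 247, 265 and 236 TPM under ponatinib, against 246, 236 and 253 TPM under DMSO. The groups overlapped and it was not called (log2 difference 0.026, 95% confidence interval -0.10 to 0.16). Atp6v0d1, which joins the ring to the stalk, also overlapped, at 46.4 ± 1.92 TPM under ponatinib and 46.7 ± 3.89 TPM under DMSO (SD, n = 3 each). Atp6v0e, a small membrane subunit, was at 123 ± 0.906 TPM under ponatinib and 131 ± 8.96 TPM under DMSO, with groups that barely missed each other, and was not called as deposited (adjusted p = 0.307); it was called lower with medians of ratios (adjusted p = 0.0185) and after quantile normalization (adjusted p = 0.0301).

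Atp6v0b, the second proteolipid of the ring, fell. It was at 54.6, 57.0 and 57.1 TPM under ponatinib, against 75.8, 70.3 and 79.6 TPM under DMSO. Every ponatinib library lay below every DMSO library, and the ratio of means was 0.748. The log2 difference was -0.41 (SE 0.060, limma adjusted p = 0.00194), and the call held under all 16 alternatives, with values from -0.51 to -0.37. The gene (ENSMUSG00000033379) is on chromosome 4 of GRCm38 from 117884326 to 117887333, minus strand, where the annotated antisense gene Gm12841 shares 243 of its exon bases; the labels do not say that the library kit kept the strand, so reads of the pair cannot be told apart.

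The V1 sector holds the ATP-binding head, made of the A and B subunits, the central stalk, and the peripheral stalks built from E and G subunits with C as their clamp and H as a regulator. Atp6v1a, the catalytic A subunit, was at 38.9 ± 0.949 TPM under ponatinib and 37.7 ± 0.763 TPM under DMSO; the groups overlapped and it was not called (adjusted p = 0.526). Atp6v1b2, the B subunit of most cells, was at 44.0, 45.4 and 47.3 TPM under ponatinib, against 40.5, 38.7 and 42.1 TPM under DMSO. The groups did not overlap, but the test was missed (log2 difference 0.17, adjusted p = 0.0503); without DMSO replicate 3 it was passed (adjusted p = 0.0171), and so it was with a pseudocount of 0.1 and without the mitochondrial genes (adjusted p of 0.0499 and 0.0372).

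The genes of the E and C subunits rose. Atp6v1e1, the E subunit, was at 67.9, 67.4 and 67.9 TPM under ponatinib, against 52.6, 49.7 and 58.5 TPM under DMSO. All ponatinib values lay above all DMSO values (log2 difference 0.34, SE 0.067, adjusted p = 0.00646). Atp6v1c1, the C subunit, was at 44.0, 45.2 and 45.3 TPM under ponatinib, against 36.6, 36.7 and 37.4 TPM under DMSO. These groups were each tight and did not overlap (log2 difference 0.27, SE 0.051, adjusted p = 0.00485). Both calls held under all 16 alternatives, with the lowest values from the medians of ratios scaling, 0.23 for Atp6v1e1 and 0.17 for Atp6v1c1.

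Atp6v1d, a subunit of the central stalk, was at 22.6, 22.0 and 21.9 TPM under ponatinib, against 18.4, 17.4 and 20.0 TPM under DMSO. The groups did not overlap and it was called higher (log2 difference 0.24, adjusted p = 0.0270). That call was lost with medians of ratios (adjusted p = 0.0891), with quantile normalization (adjusted p = 0.0533), and without any 1 library other than DMSO replicate 3 (adjusted p of 0.0839 and 0.0812 without DMSO replicates 1 and 2, and of 0.0795, 0.0822 and 0.0763 without ponatinib replicates 1, 2 and 3). Atp6v1h, the regulatory H subunit, was at 53.9, 56.9 and 58.7 TPM under ponatinib, against 50.7, 47.2 and 49.0 TPM under DMSO. The groups stood apart by a small gap (log2 difference 0.20, adjusted p = 0.0247), and the call was lost with medians of ratios (log2 difference 0.099, adjusted p = 0.181), with quantile normalization (adjusted p = 0.0884), and without DMSO replicate 2 or ponatinib replicate 2 or 3 (adjusted p of 0.0778, 0.0893 and 0.0957).

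Atp6v1g1, the G subunit that pairs with E in the peripheral stalk, fell. It was at 56.5, 59.6 and 56.9 TPM under ponatinib, against 69.0, 69.4 and 98.6 TPM under DMSO. The groups did not overlap, and DMSO replicate 3 was far above the other 2 DMSO libraries. The log2 difference was -0.43 (SE 0.13, adjusted p = 0.0312), and without DMSO replicate 3 it was -0.26 (adjusted p = 0.00301). It was no longer called when ponatinib replicate 1, 2 or 3 was left out (adjusted p of 0.0942, 0.0692 and 0.0964) or with no filter on low genes (adjusted p = 0.0812). Atp6v1f, a small subunit of the stalk, was at 169.6 ± 10.6 TPM under ponatinib and 179 ± 8.01 TPM under DMSO; its groups overlapped and it was called lower only with medians of ratios among the settings run (adjusted p = 0.0238).

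The accessory proteins Atp6ap1 and Atp6ap2, which help assemble the pump, were not called. Atp6ap2, also known as the prorenin receptor, was at 32.7, 34.3 and 35.4 TPM under ponatinib, against 28.0, 29.8 and 32.7 TPM under DMSO, so that the lowest ponatinib library lay just above the highest DMSO library. Its adjusted p was 0.0867, and 0.0118 without DMSO replicate 3. Summed over the 14 pump genes the level was 1036, 1060.4 and 1057 TPM under ponatinib, against 1043, 1005 and 1130.4 TPM under DMSO. Those sums overlapped: the sum over the pump was nearly the same in both groups while single subunits went up and down. Atp6v0c, Atp6v1f and Atp6v0e, none of them called as deposited, had the highest levels and so weigh most in the sum.

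**Figure D3:**
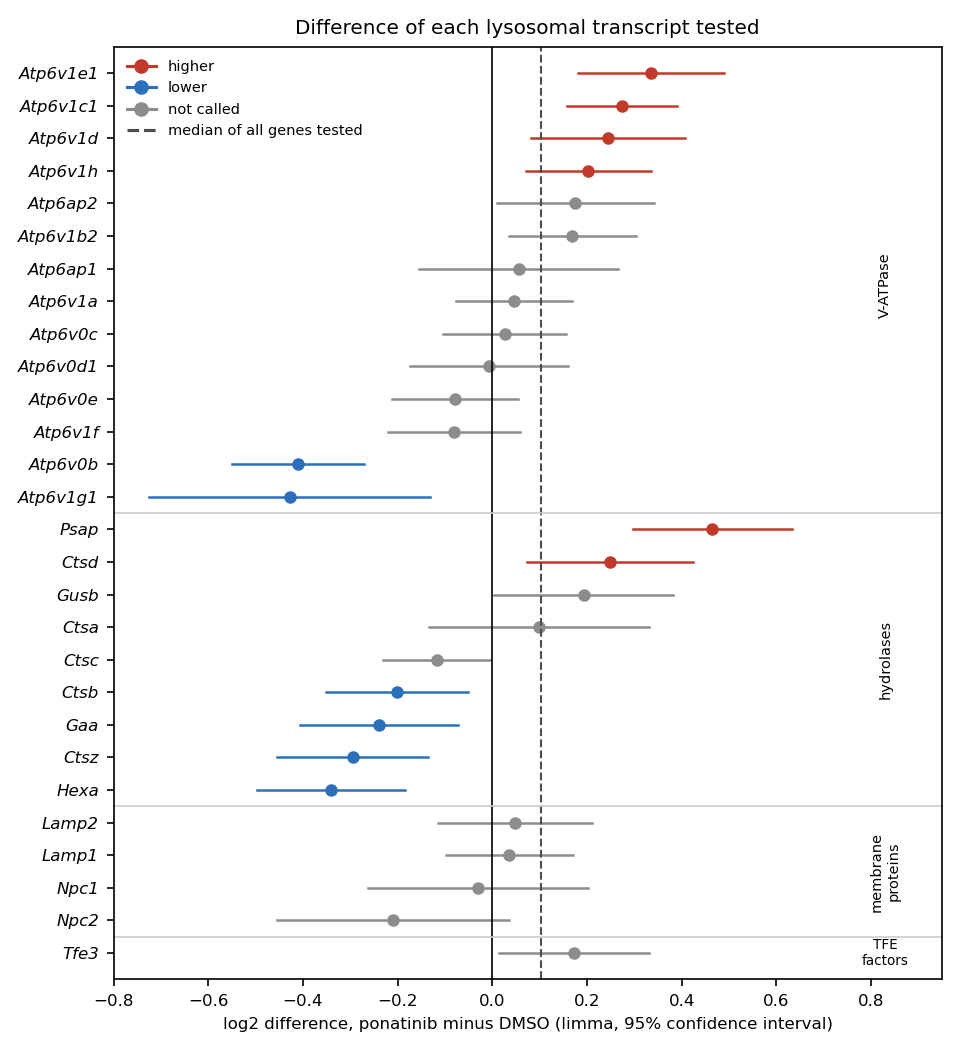
Log2 difference, ponatinib minus DMSO, with its 95% confidence interval from limma for the 28 lysosomal genes tested, by class; red was called higher, blue lower and grey not called, and the dashed line is the median of all tested genes at 0.10. Pump subunits and hydrolases fall on both sides of that line, and the intervals of all 4 tested membrane protein genes include 0.

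Among other pump genes listed from textbook knowledge, 3 of 12 were tested. Tcirg1, the a3 isoform of the V0 stator known from osteoclasts and immune cells, fell to 12.7 ± 0.601 TPM under ponatinib, against 18.4 ± 1.89 TPM under DMSO (log2 difference -0.50, adjusted p = 0.00409). The a2 isoform gene Atp6v0a2 was at 20.6 ± 0.382 TPM under ponatinib and 18.7 ± 1.17 TPM under DMSO and was not called. The other 9 genes, among them the kidney and bone isoforms Atp6v1b1 and Atp6v0d2, stayed under 2 TPM in every library. Of 5 tested genes for pump assembly and regulation, Oxr1 was the 1 called, where 29.9% of all tested genes rose and 9.88% fell. Oxr1 rose to 17.1 ± 2.16 TPM under ponatinib, against 12.2 ± 0.0495 TPM under DMSO (log2 difference 0.45, adjusted p = 0.00816).

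Among the hydrolases and their cofactors 2 of 9 tested genes were called higher and 4 lower. These are 22.2% and 44.4%, beside 29.9% and 9.88% of all tested genes. Psap encodes prosaposin, the precursor of the saposins that present sphingolipids to their hydrolases. It was at 145, 124 and 129 TPM under ponatinib, against 95.004, 90.4 and 102 TPM under DMSO. All ponatinib libraries were above all DMSO libraries, by 1.38-fold in the means. This was the largest rise among the 28 genes (log2 difference 0.46, SE 0.073, adjusted p = 0.00252), and the call held under all 16 alternatives, with values from 0.36 to 0.51. Psap (ENSMUSG00000004207) spans 60277627 to 60302597 of chromosome 10 in GRCm38, plus strand.

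Ctsd, the aspartic protease cathepsin D, was at 149.5, 135 and 136 TPM under ponatinib, against 126, 122 and 106 TPM under DMSO. The groups did not overlap and it was called higher (log2 difference 0.25, adjusted p = 0.0332). The call was lost with medians of ratios (adjusted p = 0.280), with quantile normalization (adjusted p = 0.186), without the mitochondrial genes (adjusted p = 0.0652) and with no filter (adjusted p = 0.0694). Leaving out ponatinib replicate 1, 2 or 3 also ended it (adjusted p of 0.108, 0.0664 and 0.0719). In the annotation, Gm49369 shares 808 exon bases with Ctsd on the same strand, and its row averaged 0.106 TPM.

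Hexa encodes the alpha subunit of beta-hexosaminidase A, which removes a terminal sugar from GM2 ganglioside. It was at 16.6, 16.6 and 15.1 TPM under ponatinib, against 20.3, 21.2 and 20.4 TPM under DMSO. The groups did not overlap (log2 difference -0.34, SE 0.067, adjusted p = 0.00634), and the call held under all 16 alternatives. Gm2a, which is no member and encodes the activator protein that lifts GM2 for the enzyme, fell to 24.5 ± 1.001 TPM under ponatinib, against 36.9 ± 3.06 TPM under DMSO (log2 difference -0.57, adjusted p = 0.00131).

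Ctsz, a carboxypeptidase cathepsin, fell to 77.7, 79.0 and 81.2 TPM under ponatinib, against 95.1, 90.6 and 108 TPM under DMSO. The groups were well apart (log2 difference -0.29, SE 0.069, adjusted p = 0.0122), and the call held under all 16 alternatives, from -0.40 to -0.22. Gaa, the acid alpha-glucosidase that degrades glycogen, was at 16.5, 16.4 and 15.2 TPM under ponatinib, against 20.1, 18.0 and 19.4 TPM under DMSO. It was called lower (log2 difference -0.24, adjusted p = 0.0316), a call lost without DMSO replicate 1 (adjusted p = 0.118) and when ponatinib replicate 1, 2 or 3 was left out (adjusted p of 0.0601, 0.0799 and 0.118).

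Ctsb, the cysteine protease cathepsin B, was at 37.1, 33.2 and 34.0 TPM under ponatinib, against 40.4, 38.3 and 41.6 TPM under DMSO. The gap between the groups was narrow, and the gene was called lower (log2 difference -0.20, adjusted p = 0.0397). The call was lost without DMSO replicate 1 or ponatinib replicate 2 or 3 (adjusted p of 0.110, 0.149 and 0.125) and with no filter (adjusted p = 0.0567). On chromosome 14, 774 exon bases of Ctsb (63122462 to 63145923, plus strand) overlap exons of Fdft1, the squalene synthase gene, on the other strand. Fdft1 itself fell, at 24.7, 27.1 and 30.1 TPM under ponatinib, against 42.2, 42.9 and 41.1 TPM under DMSO (log2 difference -0.61, adjusted p = 0.00111); its part in the Ctsb values was not tested.

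The remaining hydrolase genes were not called or not tested. Ctsc, which activates granzymes in cytotoxic T cells, was at 63.1, 66.3 and 66.4 TPM under ponatinib, against 70.7, 70.2 and 71.9 TPM under DMSO. Its groups did not overlap, and it was not called as deposited (log2 difference -0.12, adjusted p = 0.0900) but was called lower under medians of ratios and under quantile normalization (adjusted p of 0.00842 and 0.0161). Gusb, beta-glucuronidase, was at 70.6 ± 4.34 TPM under ponatinib and 61.8 ± 6.05 TPM under DMSO (adjusted p = 0.0962). Ctsa, a serine carboxypeptidase that also protects other hydrolases, overlapped at 27.4 ± 2.52 TPM under ponatinib and 25.6 ± 2.95 TPM under DMSO. Ctsl, cathepsin L, was under the minimum mean, at 5.65, 4.10 and 4.87 TPM under ponatinib, against 8.28, 5.97 and 9.497 TPM under DMSO; with a minimum mean of 1 TPM, which 10039 genes passed, it was called lower (log2 difference -0.59, adjusted p = 0.0290), but not with no filter (adjusted p = 0.0689).

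**Figure D4:**
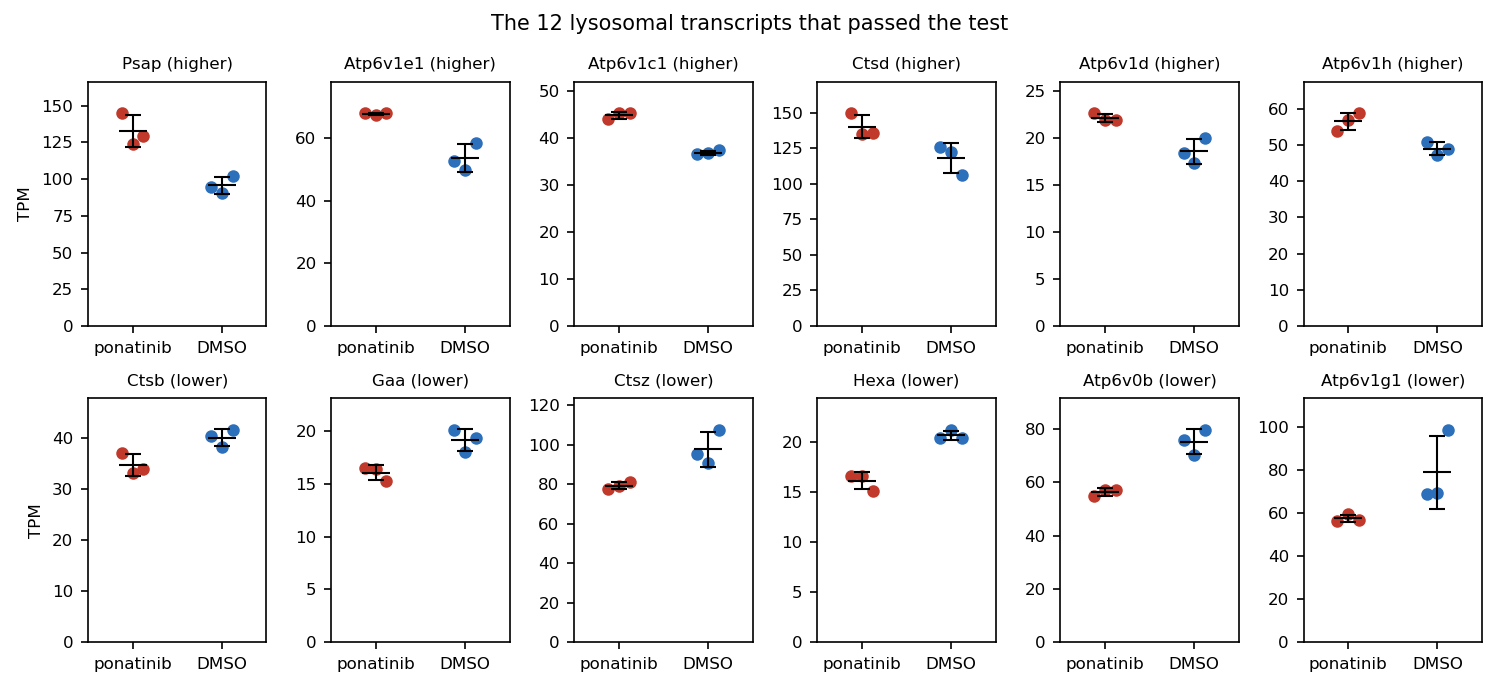
Level in TPM, on axes from 0, of the 12 lysosomal genes that passed the test, with 1 point per library (ponatinib left, DMSO right) and bars for the mean ± SD of 3 libraries. No gene shows overlap between its groups, and DMSO replicate 3, the rightmost DMSO point, is far above the other 2 DMSO libraries for Atp6v1g1.

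Of 39 other lysosomal hydrolase genes and cofactors 20 were tested, of which 4 were called higher and 7 lower, beside 29.9% and 9.88% of all tested genes, with a median log2 difference of -0.10 against 0.10 for all tested genes. Ctss, cathepsin S, rose to 117 ± 9.004 TPM under ponatinib, against 85.8 ± 4.71 TPM under DMSO, and Ctsw, a cathepsin of cytotoxic lymphocytes, rose to 75.7 ± 6.43 TPM under ponatinib, against 53.8 ± 1.82 TPM under DMSO. Scpep1, a serine carboxypeptidase, fell to 32.4 ± 2.10 TPM under ponatinib, against 48.7 ± 1.71 TPM under DMSO, and Smpd1, acid sphingomyelinase, fell to 16.99 ± 0.566 TPM under ponatinib, against 24.6 ± 0.991 TPM under DMSO (adjusted p from 7.53e-04 for Scpep1 to 0.00276 for Ctss).

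No tested membrane or cholesterol export gene was called. Lamp1, an abundant glycoprotein of the lysosomal membrane that marks degranulating T cells when it reaches their surface, was at 107, 105 and 109 TPM under ponatinib, against 106, 109.98 and 97.2 TPM under DMSO. These values overlapped (log2 difference 0.036, 95% confidence interval -0.098 to 0.17). Lamp2, which also serves chaperone-mediated autophagy, was at 24.5 ± 1.52 TPM under ponatinib and 23.6 ± 1.12 TPM under DMSO. The cholesterol exporter genes overlapped too: Npc1, the membrane transporter, was at 13.5 ± 0.841 TPM under ponatinib and 13.9 ± 1.76 TPM under DMSO, and Npc2, the luminal carrier that hands cholesterol to it, at 94.1 ± 11.0 TPM under ponatinib and 109 ± 13.4 TPM under DMSO (adjusted p = 0.150). Npc2 was called lower with medians of ratios (adjusted p = 0.0444). In the annotation, 511 exon bases of Npc1 overlap exons of Rmc1 on the other strand. The Rmc1 row averaged 10.95 TPM, and its part in the Npc1 values was not tested.

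Mcoln1, the TRPML1 calcium channel, and Cd63, a tetraspanin of lysosomes and secretory granules, were under the minimum mean, at 6.70 ± 0.901 and 1.23 ± 0.247 TPM under ponatinib, against 7.61 ± 0.247 and 1.41 ± 0.383 TPM under DMSO. Neither was called with a minimum mean of 1 TPM (adjusted p of 0.252 and 0.617). Of 12 tested genes among 26 other lysosomal membrane proteins 3 rose and 1 fell, both near the shares of all tested genes, 29.9% and 9.88%. Tpcn1, a cation channel, rose to 22.8 ± 1.39 TPM under ponatinib, against 17.1 ± 0.422 TPM under DMSO (adjusted p = 0.00395), Laptm4a and the nucleoside transporter gene Slc29a3 rose by 0.29 and 0.25 on the log2 scale, and Tmem192 fell by 0.27.

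The TFE factors were low. Tfeb was at 9.88, 11.1 and 11.0 TPM under ponatinib, against 7.81, 8.68 and 10.3 TPM under DMSO. The lowest ponatinib library lay inside the DMSO range. Its mean of 9.81 TPM missed the minimum, and with a minimum of 1 TPM it was not called (log2 difference 0.24, 95% confidence interval -0.0091 to 0.49, adjusted p = 0.123). Tfe3 was at 17.9, 18.3 and 16.7 TPM under ponatinib, against 16.0, 15.1 and 15.5 TPM under DMSO. Its groups did not overlap, yet it was not called (log2 difference 0.17, 95% confidence interval 0.014 to 0.33, adjusted p = 0.0796). The related factor gene Mitf stayed under 1 TPM in all libraries and Tfec was listed at 0. TFEB and TFE3 are controlled chiefly by where the proteins sit in the cell, which RNA levels do not show.

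Of 20 genes that control these factors 13 were tested, and 5 rose and 0 fell, where 29.9% of all tested genes rose and 9.88% fell. Flcn, folliculin, which with its partners lets mTORC1 keep TFEB in the cytosol, rose to 15.4 ± 0.772 TPM under ponatinib, against 11.6 ± 0.242 TPM under DMSO (adjusted p = 0.00576). Ppp3ca, a calcineurin subunit of the phosphatase that releases TFEB, rose to 12.5 ± 1.24 TPM under ponatinib, against 8.27 ± 0.468 TPM under DMSO (adjusted p = 0.00372), and Rptor, the mTORC1 scaffold, rose by 0.36 on the log2 scale. Of 17 tested genes for delivery to lysosomes 5 rose and 0 fell, a share of higher genes near the 29.9% of all tested genes, led by Igf2r, the large mannose 6-phosphate receptor, at 26.7 ± 0.757 TPM under ponatinib and 18.7 ± 1.93 TPM under DMSO (log2 difference 0.50, adjusted p = 0.00303). Nagpa, which uncovers the mannose 6-phosphate tag, and the tethering gene Vps33a rose by 0.40 and 0.33. Of 8 tested autophagy genes of the CLEAR network 1 rose and 1 fell, beside 29.9% and 9.88% of all tested genes. Uvrag rose by 0.30 and Hif1a fell by 0.75 on the log2 scale. Hif1a was at 159.8 TPM in the third DMSO library and at 98.3 and 87.0 TPM in the other DMSO libraries. Sqstm1 and Map1lc3b, an autophagy receptor and the LC3B gene, were not called.

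**Figure D5:**
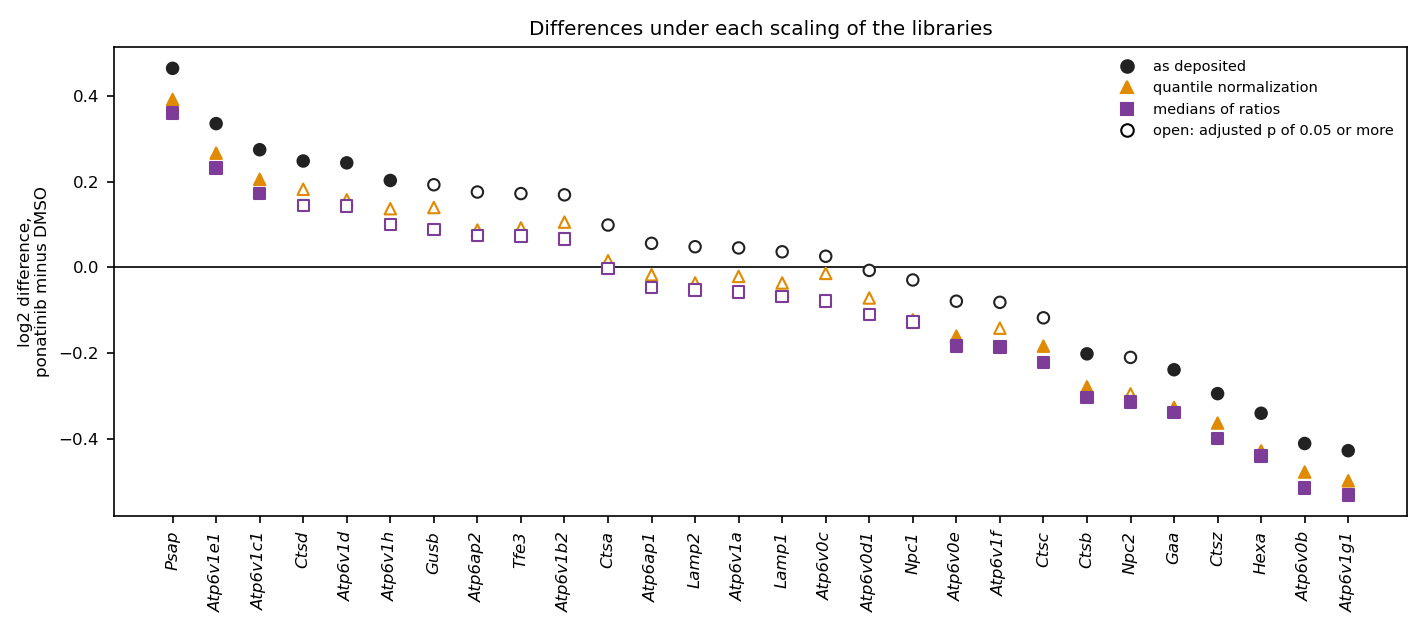
Log2 difference, ponatinib minus DMSO, of the 28 tested lysosomal genes with the libraries as deposited, after quantile normalization and after scaling by medians of ratios; filled symbols passed an adjusted p of 0.05 and open ones did not. Scaling by medians of ratios lowers the values by about 0.10, and Ctsd, Atp6v1d and Atp6v1h lose their calls and Ctsc and Atp6v0e gain one under both other scalings.

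Counted by overlap of the libraries, without the test, over all 32 genes the ponatinib libraries lay wholly above DMSO in 10 and wholly below in 9. Among all tested genes 39.4% lay wholly above and 14.0% wholly below. The 32 include 4 genes under the minimum mean, a kind of gene that these shares leave out. Of those, Ctsl lay wholly below, and Cd63, Mcoln1 and Tfeb overlapped. By class, the pump had 6 above and 3 below of 14, the hydrolases 3 above and 6 below of 10, and the 6 membrane proteins 0 in either direction. Relative to the median of all tested genes, 10 of the 28 tested genes lay above it and 18 below, from -0.53 for Atp6v1g1 to 0.36 for Psap.

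Macrophages and other myeloid cells are rich in lysosomal hydrolases, and their markers were at low levels. The total of 12 myeloid markers was 11.7, 11.2 and 9.10 TPM under ponatinib, against 4.56, 4.35 and 7.24 TPM under DMSO, and none reached a mean of 10 TPM. In 6 of the 12 all ponatinib libraries lay above all DMSO libraries, and in 1 below. For this list and those that follow, the shares over all tested genes were 39.4% wholly above and 14.0% wholly below. Those tested genes have a mean of at least 10 TPM, which most of these markers do not reach. Lyz2 was at 2.81, 1.54 and 1.13 TPM under ponatinib, against 0.0422, 0.260 and 0.106 TPM under DMSO. Cd14, Csf1r and Adgre1 were under 1 TPM in every library, and C1qa was at 0 in 5 of 6. The 8 B cell markers, 3 of them higher without overlap, summed to 153 to 175 TPM under ponatinib and 138 to 166 TPM under DMSO, nearly all of it Ighm. The 6 dendritic cell markers, 4 of them higher without overlap, summed to 129.7 to 145 TPM under ponatinib and 84.3 to 93.8 TPM under DMSO, most of it Cd74, with Siglech at 0. The 4 CD4 T cell markers, 3 higher and 1 lower without overlap, summed to 16.4 to 19.7 TPM under ponatinib and 5.21 to 9.53 TPM under DMSO. The 4 NK cell markers, 3 of them higher, summed to 33.7 to 42.4 TPM under ponatinib and 18.2 to 30.4 TPM under DMSO, most of it Eomes, with Ncr1 under 1 TPM. The 6 erythroid and platelet markers, 3 of them higher, summed to 2.26 to 4.87 TPM under ponatinib and 0.454 to 1.2025 TPM under DMSO. Their part in the lysosomal differences was not tested, and in bulk RNA fewer cells of a type and less RNA per cell cannot be told apart.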

How the data were processed

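The authors deposited 1 table of 43072 rows, 22095 with gene and 20977 with transcript identifiers. Its values were taken as TPM, since each deposited column adds up to 1000000. Per the submitters' processing notes, GRCm38, Salmon 1.5.1, fastp 0.19.5 and DESeq2 1.22.1 were used, in roles they do not state; how transcripts were summed to genes is not stated either. TPM keep no depth, so reads per library are unknown and the median SE of 0.075 shows the precision.

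Groups came from titles. Gene rows were named by identifier from GENCODE mouse release 21 (22011 found); 11 of all identifiers shared its version, so the authors' annotation was another one. limma 3.58.1 in R 4.3.3 (lmFit, eBayes with trend, two-sided) compared ponatinib with DMSO on log2(TPM + 1) for genes averaging 10 TPM or more, with Benjamini-Hochberg adjustment over all of them. The fit was tested on simulated data. The same tool gave every adjusted p. Alternatives changed the pseudocount (0.1, 5), filter, scaling, rows, empirical Bayes and replicate block, or left out 1 library.

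All 32 members are named, and of each pathway list the 3 called genes with the smallest p per direction; a few listed genes are not reported here. Members and lists were chosen with earlier results of these data known. Sequences are from RefSeq (GRCm38.p6).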

Additional observations from a re-analysis of the deposited data

How the results depend on the processing

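Of the 12 called genes, 6 kept their call under all 16 alternatives (Atp6v0b, Atp6v1c1, Atp6v1e1, Ctsz, Hexa and Psap), and none of the 32 was called in both directions. With medians of ratios the counts of higher and lower genes were 1058 and 1171 over all genes (47.5% of calls higher, against 75.1% as deposited). Over the 32 they were 3 and 10, and in the pump 2 and 4. In the hydrolase class 1 was higher, the cofactor precursor gene Psap, and 5 were lower. The 1 lower gene of the membrane and cholesterol export class was Npc2, the luminal carrier. With quantile normalization the counts were 1276 and 1001 over all genes (56.0% higher), with 3 higher of the 32, 2 in the pump and Psap. With no filter Psap was the 1 higher gene of the hydrolase class, and 1 pump gene was lower. Without mitochondrial genes Psap was also the 1 higher gene of that class. Leaving out 1 library gave 1138 to 2745 higher and 463 to 677 lower genes over all, 3 to 8 and 3 to 6 of the 32, 2 to 6 and 1 to 2 pump genes, and 1 to 2 and 2 to 4 hydrolases; the lowest counts over the 32 came without ponatinib replicate 2 or 3. Adding transcript rows to their genes, as an alternative to gene rows alone, kept all 12 calls.

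Uncalled values near 0 changed sign. With medians of ratios and quantile normalization they were -0.079 and -0.014 for Atp6v0c, -0.057 and -0.021 for Atp6v1a, -0.047 and -0.017 for Atp6ap1, -0.068 and -0.036 for Lamp1, and -0.053 and -0.036 for Lamp2, and Ctsa was at -0.0028 with medians of ratios. Adding transcript rows put Atp6v1a at -0.019. Leaving out 1 library gave -0.019 to 0.064 for Atp6v0c, -0.060 to 0.055 for Atp6v0d1, -0.027 to 0.15 for Atp6ap1, -0.014 to 0.074 for Lamp1 and -0.11 to 0.057 for Npc1. The cause of these changes was not tested.

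The groups share replicate numbers, but deviations of same-numbered libraries correlated at -0.098, 0.13 and 0.0094, so the numbers were not read as pairs. With the replicate block 1911 genes were higher and 646 lower, and 6 and 6 of the 32.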

Other observations

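The table also lists 49 transcript rows of 17 of the 32 genes, kept apart from the gene rows, of which 9 reached a mean of 1 TPM. In none of these 9 did all ponatinib libraries lie above all DMSO libraries. The most abundant, an Atp6v1a transcript (ENSMUST00000124102), was at 6.27, 15.3 and 12.046 TPM under ponatinib and at 7.84, 16.3 and 14.8 TPM under DMSO.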
